A study of Rattus norvegicus with 12 samples.

Results

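The effect of actinomycin D (ActD) on the mRNA of stimulated hippocampal neurons was read from 6 of the 12 arrays in the series, chosen by their labels alone. The Activity+ActD group held 3 arrays of cultures stimulated in 25 µM ActD, and the Activity group held 3 arrays of cultures stimulated without it. In each group 1 array came from the 5 min harvest, 1 from the 30 min harvest and 1 from the 60 min harvest, so that arrays were compared within a harvest. All neurons were from Sprague Dawley rat embryos (embryonic day 18.5), were grown for 12 days over a glial feeder layer, and were silenced for 3 h with blockers of NMDA receptors (APV, 50 µM), of AMPA receptors (CNQX, 40 µM) and of sodium channels (TTX, 100 nM). Cultures were then rinsed in medium with ActD or its DMSO vehicle, pre-incubated in the inhibitors, and fired for 5 min in 50 µM bicuculline (BiC), which blocks GABA-A receptors, and 500 µM 4-aminopyridine (4-AP), which blocks potassium channels. ActD was therefore present before the stimulus began. At 5 min RNA was taken at once, and for the later harvests the stimulus was replaced by fresh medium; whether that medium held ActD is not given in the sources used here. Each sample pooled 3 coverslips. The remaining 6 arrays were Block cultures, kept in the inhibitors with or without ActD. They entered the normalization, the detection filter and the estimate of spread in the main fits. Their own ActD differences are given to show where the difference in stimulated cultures stood apart.

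ActD binds DNA and stops RNA polymerases from elongating, so that no new mRNA is made and each transcript is lost at the speed of its own decay. Transcripts with AU-rich elements and other decay signals, above all those of the immediate early genes that firing neurons switch on, are degraded fastest, while those of structural, metabolic and synaptic genes can last for many hours. A comparison of stimulated neurons with and without ActD therefore asks which mRNA levels depended on RNA made after the drug was added. The study used ActD in another way, to look for post-transcriptional control. It kept transcripts whose change with stimulation passed its cut-off both with and without ActD.

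The arrays were Illumina RatRef-12 bead arrays with 22523 probes. On the 6 arrays the total intensity was between 11205873 and 13824776, and 10001 to 10779 probes had a detection p under 0.01. Levels below are log2 values after background correction and quantile normalization, and differences are Activity+ActD minus Activity on that scale, with a positive value where ActD was higher. Because this normalization gives every array the same distribution, a loss shared by all transcripts could not be seen. Of the 22523 probes, 11792 were detected on at least 2 of the 12 arrays and tested, and they named 8169 genes. Neuronal markers were present on all 6 arrays (17 or 18 of 18 detected), and so were astrocyte markers (13 of 13 on each). The summed level of the astrocyte list was 116600 to 137100 in Activity+ActD cultures and 113000 to 139300 in Activity cultures, and that of the neuronal list was 32890 to 49420 in Activity+ActD cultures and 31740 to 50860 in Activity cultures. In such bulk samples fewer cells of a type and less RNA per cell cannot be told apart. Each treatment and harvest had 1 array, so the harvests stood in for replicates. In the main fits the standard errors and p-values did not rest on the spread of the Activity+ActD minus Activity differences alone. They rested on how far treatment differences varied between harvests, pooled over stimulated and silenced cultures. Each probe's variance was also drawn toward that of other probes by limma.

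No transcript passed the test for a difference between Activity+ActD and Activity cultures over the 3 harvests. With limma and Benjamini-Hochberg adjustment at 0.05, 0 of 11792 probes were higher (0%) and 0 were lower (0%), against 161 higher (1.37%) and 132 lower (1.12%) at an unadjusted p under 0.05. The median standard error of a probe's mean difference was 0.14, and the 95% interval reached 0.30 to either side of the median probe. For 11764 probes (99.8%) the lower end of the interval lay above a 2-fold loss. Probes near background had little room to fall that far, so for them this count says little. Restricting the comparison to the 30 and 60 min harvests, when decay had had more time to act, called 0 probes as well (229 higher, 1.94%, and 202 lower, 1.71%, at an unadjusted p under 0.05, or 3.66% together). The difference was higher at each of the 3 harvests for 1329 probes (11.3%) and lower at each for 1104 (9.36%).

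The immediate early transcription factors carry the first transcriptional response of a firing neuron. Those tested differed by less than 1.5-fold between the groups at each harvest, and more were lower than higher in the mean with ActD. Fos, an AP-1 subunit with one of the shortest-lived mRNAs known, stood at 8.14, 6.07 and 6.06 in Activity+ActD cultures at 5, 30 and 60 min, against 8.11, 6.35 and 6.05 in Activity cultures. Junb, another AP-1 subunit, stood at 10.05, 8.22 and 7.44 in Activity+ActD cultures and at 9.99, 8.27 and 7.52 in Activity cultures. Egr1, a zinc finger factor induced within minutes of synaptic input, stood at 9.34, 9.07 and 8.71 in Activity+ActD cultures and at 9.34, 9.18 and 8.75 in Activity cultures. For all 3 genes the values of the 2 groups ran side by side at each harvest. Levels were highest at 5 min whether or not ActD was present. The ranges overlapped, but ranges here and below also hold the steps between harvests, so overlap says little about the paired differences. Mean differences over n = 3 harvests are given here ± the pooled limma SE, with the 95% interval in brackets. They were -0.08 ± 0.16 for Fos (-0.42 to 0.25), -0.02 ± 0.10 for Junb (-0.25 to 0.20) and -0.05 ± 0.11 for Egr1 (-0.29 to 0.19).

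**Figure D1:**
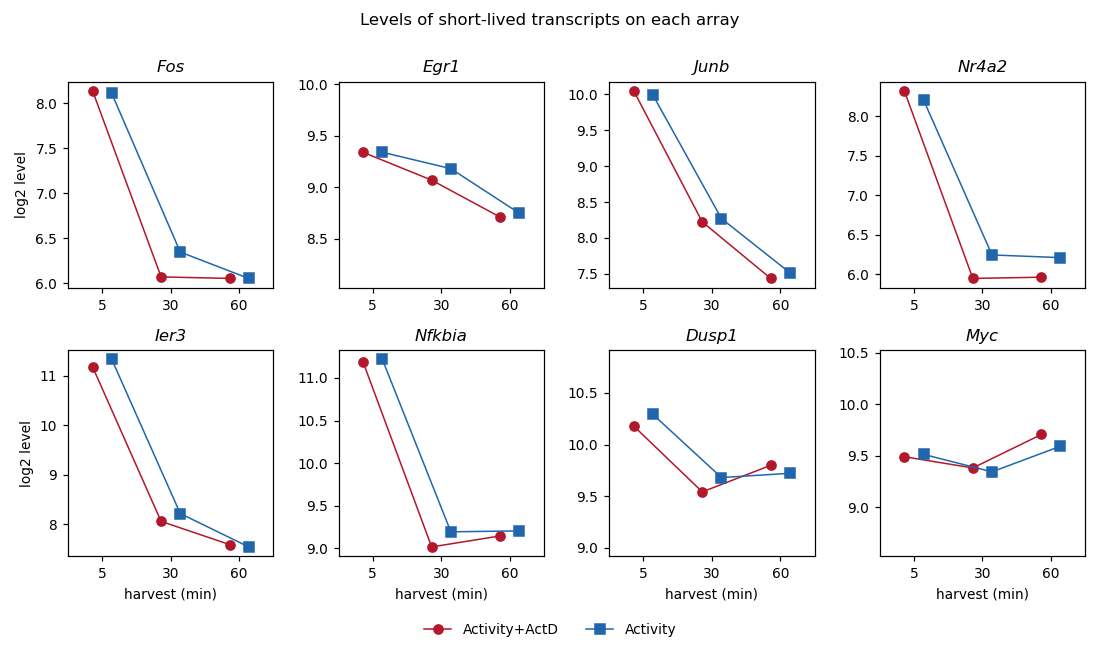
Log2 level of 8 short-lived transcripts on each array, by harvest in min, with Activity+ActD as red circles (left) and Activity as blue squares (right); each point is 1 array. The lines of the 2 groups run close together in every panel, as for Fos at 6.06 and 6.05 at 60 min.

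Of 31 factors on that list 25 were on the array and 21 were tested. Their mean difference was above 0 for 7 and below 0 for 14, and none reached 1.5-fold in either direction at any harvest. The difference was lower at each harvest for 6 and higher at each for 1, beside 759 and 888 of all 8169 tested genes. The list's median difference was -0.04 at 5 min, -0.09 at 30 min and 0.00 at 60 min, beside 0.03, 0.00 and 0.00 over all tested genes. Nr4a2, an orphan nuclear receptor, had levels of 8.32, 5.95 and 5.97 in Activity+ActD cultures and 8.21, 6.25 and 6.21 in Activity cultures. Egr2 had 9.04, 9.53 and 9.04 in Activity+ActD cultures and 8.94, 9.53 and 9.01 in Activity cultures. The lowest p in the group on the lower side was that of Klf9, a Krüppel-like factor, with 8.66, 8.86 and 8.71 in Activity+ActD cultures and 9.23, 9.27 and 8.98 in Activity cultures, where the groups did not overlap (mean difference -0.41 ± 0.19). Egr4, detected on 2 arrays of each group, was higher by 0.40, 0.33 and 0.16 at the 3 harvests. Neither passed the test over all probes.

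Many of these genes are switched on through short sites next to their start, which bind CREB or serum response factor. The following stretches show such sites in promoters of the immediate early genes measured here, from RefSeq on the GRCr8 build, with the CREB site (CRE, TGACGTCA) or the serum response factor site (CArG box) in capitals and the gene's own strand given 5′ to 3′.
Dusp1 (chr10:17184718-17184747, +): ggcagggcgggTGACGTCAccacccggtca
Ier2 (chr19:40399296-40399325, +): tggcgtttcagTGACGTCActcttactcta
Plk2 (chr2:43702459-43702488, +): agccctcttcgTGACGTCAcgaggccccgc
Vgf (chr12:25277092-25277121, -): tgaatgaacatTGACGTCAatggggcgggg
Egr2 (chr20:21054505-21054534, -): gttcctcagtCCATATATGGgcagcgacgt
Srf (chr9:21923985-21924014, +): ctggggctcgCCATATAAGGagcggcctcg

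Both motifs read the same way on the 2 strands, so 1 search covered them; the CRE was found in 525 of 27457 promoters of 300 bases (1.91%) and the CArG box in 451 (1.64%). Of the 8169 tested genes 6816 matched a promoter by symbol. Among the 41 tested immediate early genes with a promoter sequence, 4 held a CRE and 5 a CArG box. The medians of such genes lay close to those of all tested genes. The 226 tested genes with a CRE had a median difference of 0.01, 0.00 and 0.01 at 5, 30 and 60 min, and 112 of them had a mean below 0. The 75 with a CArG box had medians of 0.01, -0.03 and -0.02, and 43 had a mean below 0. For Dusp1, a MAP kinase phosphatase, the levels were 10.18, 9.54 and 9.80 in Activity+ActD cultures and 10.29, 9.68 and 9.72 in Activity cultures. For Srf, which encodes serum response factor itself, they were 9.72, 9.73 and 9.51 in Activity+ActD cultures and 9.84, 9.82 and 9.62 in Activity cultures.

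The effectors that immediate early programmes deliver to the synapse, to kinase pathways and to the cell surface gave a similar picture, with 29 of 42 listed genes tested. The median difference was -0.04, -0.01 and 0.04 at the 3 harvests, and 2 members passed 1.5-fold at 5 min, both lower. These were Ptgs2, the inducible cyclooxygenase, at 6.22, 7.41 and 6.62 in Activity+ActD cultures and 7.13, 7.08 and 6.77 in Activity cultures, and Ccn2, a matricellular growth factor, at 11.04, 8.76 and 8.67 in Activity+ActD cultures and 11.73, 8.77 and 8.71 in Activity cultures. In both genes the 5 min pair alone differed by more than 1.5-fold, and the ranges of the groups overlapped. At 5 min, 656 of all 11792 probes (5.56%) were past 1.5-fold lower and 228 (1.93%) higher, so these 2 of 29 members lay near the share of the whole array. Arc, which drives removal of AMPA receptors from the synapse, differed by 0.18, -0.16 and -0.03. Ier3, a stress-inducible survival factor, had levels of 11.18, 8.06 and 7.59 in Activity+ActD cultures and 11.34, 8.22 and 7.54 in Activity cultures. Bdnf, the neurotrophin most tied to synaptic activity, was at 7.38, 7.10 and 6.97 in Activity+ActD cultures and at 7.90, 7.21 and 6.78 in Activity cultures. Rasd1, a Ras-related GTPase, was the member with the lowest p, at 6.26, 5.95 and 5.74 in Activity+ActD cultures and at 5.90, 5.64 and 5.53 in Activity cultures (0.29 ± 0.13). It was higher at each harvest, with ranges that overlapped across harvests.

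Other regulators whose mRNAs are short-lived in most cells also had similar levels in both groups. Of 57 such genes 42 were tested, 15 with a mean above 0 and 27 below, and their median difference was -0.10, 0.00 and 0.03 at 5, 30 and 60 min. Myc, a growth-promoting transcription factor, stood at 9.49, 9.38 and 9.71 in Activity+ActD cultures and at 9.51, 9.35 and 9.59 in Activity cultures. Mcl1, an antiapoptotic member of the Bcl-2 family, ranged from 8.92 to 9.0 in Activity+ActD cultures and from 8.84 to 9.31 in Activity cultures, with differences of -0.35, 0.08 and 0.07. Neither gene was lower with ActD at 30 or 60 min. Dbp, a clock-controlled factor, stood at 5.80, 5.53 and 5.16 in Activity+ActD cultures and at 5.60, 5.58 and 5.93 in Activity cultures, so that only the 60 min pair was past 1.5-fold. At 60 min, 24 of the 42 were higher and 17 lower in the Activity+ActD culture.

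Transcripts of the NF-kB and C/EBP systems differed widely in level between harvests, and they too did so with and without ActD. Of 37 listed genes 26 were tested, and 16 of them were at least 2-fold lower at 30 than at 5 min in Activity+ActD cultures, as were 17 in Activity cultures. Over all 8169 tested genes, 398 in Activity+ActD cultures and 320 in Activity cultures were as much lower at 30 min. Ccl2, a monocyte chemokine, stood at 13.21, 7.48 and 6.68 in Activity+ActD cultures and at 13.40, 7.84 and 6.31 in Activity cultures. Nfkbia, the inhibitor that NF-kB induces against itself, stood at 11.18, 9.02 and 9.14 in Activity+ActD cultures and at 11.22, 9.19 and 9.20 in Activity cultures. Lcn2, a siderophore-binding protein, stood at 14.50, 7.28 and 5.75 in Activity+ActD cultures and at 14.17, 7.47 and 5.76 in Activity cultures. Against such steps between harvests the ActD differences were small. The list's median difference was -0.11, -0.04 and -0.04, with 8 members above 0 and 18 below in the mean. Cxcl1, a neutrophil chemokine, was the member with the lowest p, at 13.18, 6.46 and 5.53 in Activity+ActD cultures and at 13.44, 6.57 and 5.89 in Activity cultures (-0.24 ± 0.11). Cebpb, a C/EBP factor of the inflammatory response, was at 11.35, 9.96 and 9.44 in Activity+ActD cultures and at 11.51, 10.07 and 9.69 in Activity cultures. Both were lower with ActD in each pair. Their ranges overlapped, but these spanned the large steps between harvests.

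Over these 4 lists together, 118 genes were tested, and 42 had a mean difference above 0 and 76 below. Over all tested genes the numbers were 4080 above and 4089 below. Of the 118, 17 were lower at each harvest and 7 higher at each, beside 759 and 888 of all 8169 tested genes. The largest mean differences in the 118 were -0.41 (Klf9) and 0.29 (Egr4). The lower end of the 95% interval lay above a 2-fold loss for all 118, which says little for members near background. At 5 min 6 members were past 1.5-fold lower and 0 higher, at 30 min 0 in either direction, and at 60 min 2 lower and 0 higher. Of all 8169 tested genes, 438 were lower and 135 higher at 5 min, so the 6 lower members lay near that share. At 30 min 74 were lower and 57 higher, and at 60 min 42 lower and 50 higher.

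**Figure D2:**
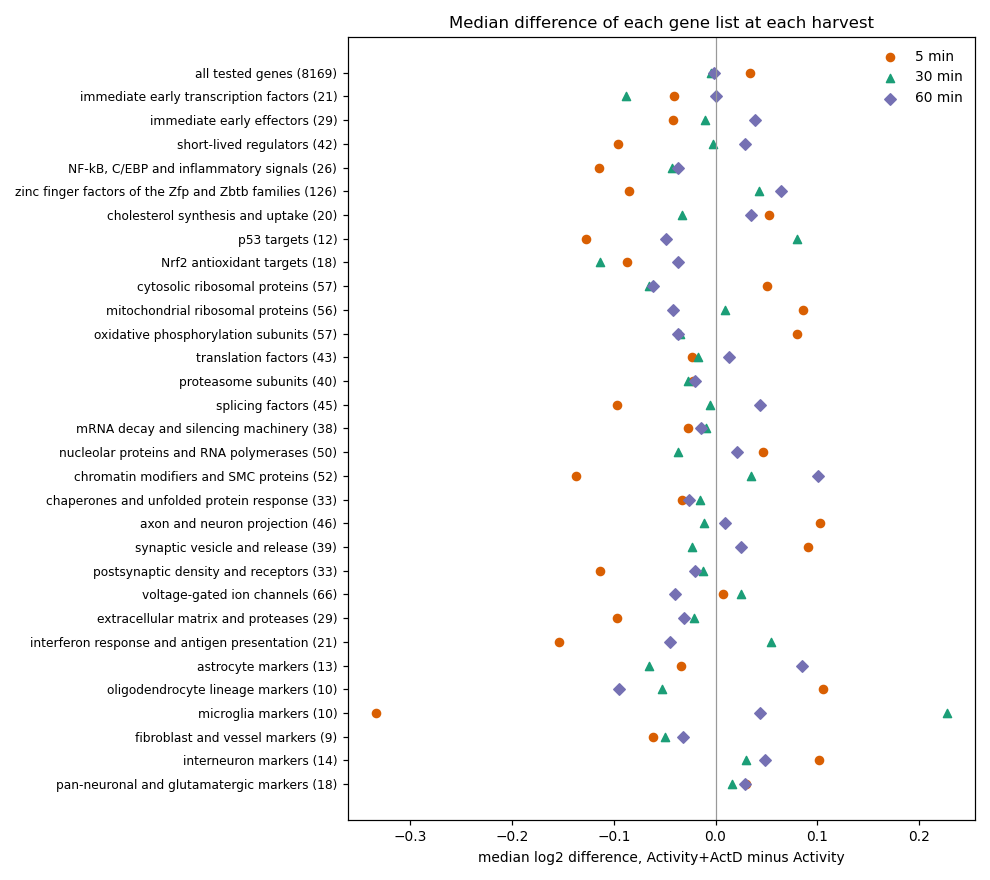
Median log2 difference, Activity+ActD minus Activity, of each gene list at 5 min (circles), 30 min (triangles) and 60 min (diamonds), with the number of tested genes in brackets. The 4 short-lived lists lie within -0.11 to 0.04, and the microglia markers have the widest range, from -0.33 to 0.23. At 30 min, where the 0.23 lies, 4 of 10 microglia markers were detected in the Activity+ActD culture and 2 in the Activity culture.

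The genes with the lowest p in the main comparison included several that were above background in 1 group only. Among the lower ones, Mx2, an interferon-induced dynamin-like GTPase, was at 8.63, 4.88 and 5.53 in Activity+ActD cultures and at 9.06, 5.69 and 6.0 in Activity cultures (-0.57 ± 0.13, adjusted p = 0.9999 by limma). It was lower in 3 of 3 pairs, with ranges that overlapped across harvests. Mx2 was detected on 2 Activity+ActD arrays and on 3 Activity arrays. Ube3a, the ubiquitin ligase lost in Angelman syndrome, was at 4.82, 5.12 and 5.42 in Activity+ActD cultures and at 5.58, 5.58 and 5.74 in Activity cultures (-0.51 ± 0.14), with no overlap and with detection on 1 Activity+ActD array and 3 Activity arrays. Stxbp5, which binds syntaxin and restrains vesicle release, was at 5.18, 6.45 and 6.25 in Activity+ActD cultures and at 5.89, 6.99 and 6.48 in Activity cultures (-0.50 ± 0.16). Levels of the 3 arrays did not overlap for 151 probes on the lower side (1.28%) and for 233 on the higher side (1.98%). Other genes lower in each pair were Erlin2 (-0.47), Oasl2 (-0.49) and Cyp17a1 (-0.53). Each was detected on 1 Activity+ActD array, and they were detected on 2, 2 and 3 Activity arrays. Arl11, detected on 0 Activity+ActD and 3 Activity arrays, was at least 1.12-fold lower.

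Among the higher ones, Hand2, a basic helix-loop-helix factor, was at 6.33, 6.30 and 6.51 in Activity+ActD cultures and at 6.11, 5.65 and 5.81 in Activity cultures, with no overlap (0.52 ± 0.14, adjusted p = 0.9999 by limma). Rfc2, a subunit of the clamp loader of DNA replication, was at 7.82, 6.68 and 6.88 in Activity+ActD cultures and at 7.19, 6.36 and 6.65 in Activity cultures (0.39 ± 0.13). Stx1a, the syntaxin of the presynaptic fusion complex, was at 7.91, 7.84 and 7.81 in Activity+ActD cultures and at 7.27, 7.68 and 7.45 in Activity cultures, again with no overlap (0.39 ± 0.13). Thrsp, linked to lipogenesis, was higher by 0.55, 0.14 and 0.22, and Fam110d by 0.95, 0.21 and 0.46. Nab2, a corepressor of the Egr factors, was detected on all 3 Activity+ActD arrays and on 0 Activity arrays, and was at least 1.27-fold higher. In all, 26 of 22523 probes were detected on all 3 arrays with ActD and on none without, and 6 showed the opposite.

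**Figure D3:**
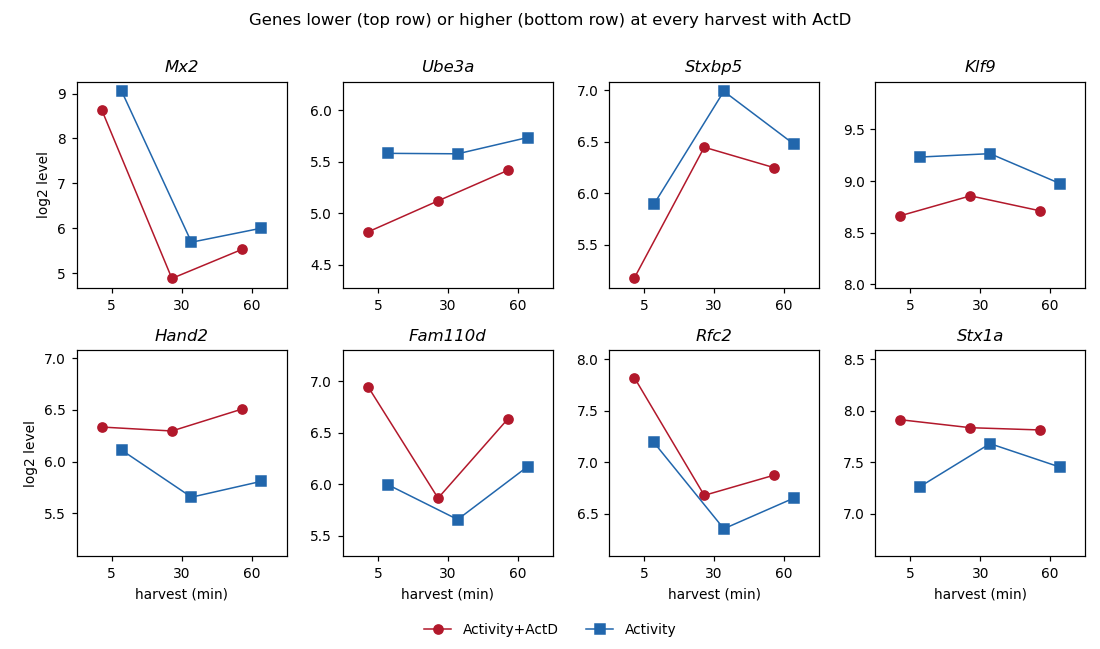
Log2 level on each array, by harvest in min, of 4 genes lower (top row) and 4 higher (bottom row) at every harvest, with Activity+ActD as red circles (left) and Activity as blue squares (right). Each point is 1 array, and the red points of Ube3a (4.82 to 5.42) lie below the blue ones (5.58 to 5.74).

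Just 1 probe was past 1.5-fold in the same direction at all 3 harvests (0.00848%), and it is named here after its values were seen. This probe, ILMN_1355531, has no gene name in the annotation used. It was lower in Activity+ActD cultures, at 4.51, 5.07 and 4.68, against 5.56, 6.0 and 5.52 in Activity cultures, and had the lowest p of the comparison (-0.94 ± 0.17, limma adjusted p = 0.9999). It was not above background on any Activity+ActD array and was on all 3 Activity arrays, so that the level was at least 1.4-fold lower. In silenced cultures, which share no array with the stimulated ones, the same probe differed by -0.82, -0.88 and -0.57. Across the whole series it was detected on 0 arrays with ActD and on 6 without, which held for 1 of 22523 probes. The reverse pattern held for 1 probe too, that of Olr551, an olfactory receptor gene, with 5.59, 5.36 and 5.43 in Activity+ActD cultures and 5.12, 4.89 and 5.09 in Activity cultures.

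Taken harvest by harvest, differences were largest at 5 min. Past 1.5-fold were 228 probes higher and 656 lower at 5 min, 107 higher (0.907%) and 96 lower (0.814%) at 30 min, and 82 higher (0.695%) and 70 lower (0.594%) at 60 min. These are 1 array against 1, with no test. The spread of the differences over probes (SD) was 0.33, 0.22 and 0.20. Differences at 1 harvest were weakly related to those at another, with a correlation across the 11792 probes of r = -0.0685 between 5 and 30 min, -0.185 between 5 and 60 min and 0.0772 between 30 and 60 min. Of the 656 probes lower at 5 min, 4 were past 1.5-fold lower and 12 higher at 30 min, and 2 lower and 10 higher at 60 min. The 5 min split depended on scaling: with the authors' scaling to equal totals 38 probes were higher and 351 lower, and with median scaling 112 and 1136, where the median gene lay at -0.11 in place of 0.03. At 60 min the authors' scaling left 0 probes higher and 4 lower.

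**Figure D4:**
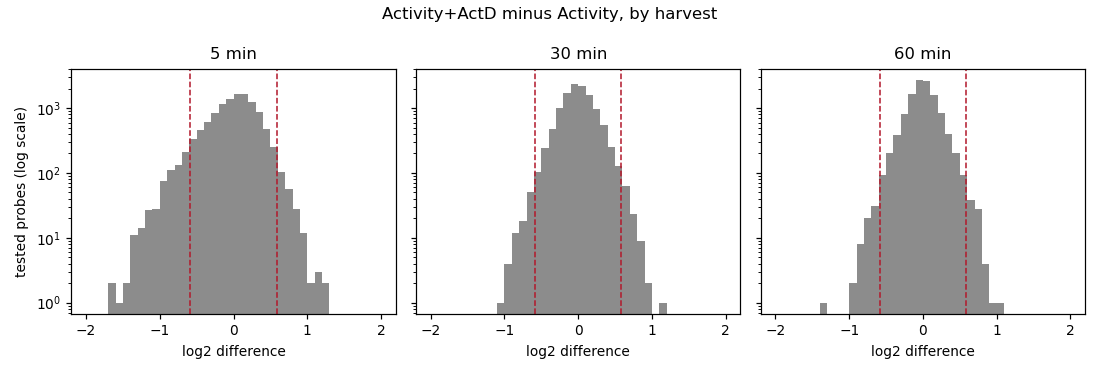
Number of tested probes (log scale) by log2 difference, Activity+ActD minus Activity, at each harvest, with 1.5-fold marked by dashed lines. The 5 min histogram is the widest (SD 0.33 against 0.22 and 0.20) and has its longer tail on the lower side.

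The transcripts lower at 5 min included several that were abundant in both groups at the later harvests, which were separate samples. Sh3bgrl1, an SH3-binding glutamic acid-rich protein, was 3.23-fold lower at 5 min, with 5.52, 8.20 and 8.44 in Activity+ActD cultures and 7.21, 8.33 and 8.46 in Activity cultures. Tax1bp1, an autophagy receptor, was 2.48-fold lower at 5 min, with 8.51, 10.54 and 10.54 in Activity+ActD cultures and 9.82, 10.39 and 10.31 in Activity cultures. In both, the pairs at 30 and 60 min were less than 1.5-fold apart. Hsp90aa1, the inducible HSP90 chaperone, was at 10.50, 12.68 and 12.84 in Activity+ActD cultures and at 11.75, 12.61 and 12.53 in Activity cultures. Naa15 (2.71-fold), Exoc5 (2.49-fold), Gpr22 (2.41-fold) and Lpar4 (2.38-fold) were lower at 5 min in the same way. Cyp4b1, a cytochrome P450, was 2.52-fold lower at 5 min, with 5.34, 4.51 and 4.46 in Activity+ActD cultures and 6.67, 4.81 and 4.36 in Activity cultures. Its level was highest at 5 min in both groups, and its later levels lay in the range of probes not above background. Cp, which encodes ceruloplasmin, was 3.13-fold lower at 5 min, at 8.80 in the Activity+ActD culture and 10.44 in the Activity culture, and was detected on no other array of the 2 groups. Higher at 5 min were Dhx8, a splicing helicase (2.32-fold), Ptgds, a prostaglandin D synthase (2.27-fold), and Adgrb1, an adhesion receptor of synapses (2.05-fold).

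The 5 min pattern was shared with cultures that had not been stimulated. At 5 min the ActD differences in Activity and in Block cultures, which have no array in common, correlated across the 11792 probes with r = 0.601 (Spearman's coefficient 0.513), against 0.0952 at 30 min and -0.141 at 60 min. This is a description over probes of the same arrays. Of the 656 probes lower in stimulated cultures at 5 min, 480 (73.2%) were also past 1.5-fold lower in silenced cultures, where they made up 34.9% of the 1376 lower ones (11.7% of all probes). Among the probes higher at 5 min, 33 were shared, or 14.5% of the 228 in stimulated and 4.63% of the 712 in silenced cultures (6.04% of all probes). In silenced cultures Sh3bgrl1 differed by -2.36 and Tax1bp1 by -2.06 at this harvest, both further than with stimulation. Cyp4b1, lower with ActD in stimulated cultures, differed by 0.62 in silenced ones, and Dhx8, higher in stimulated cultures, by -0.48. At 5 min 10001 probes were detected in the Activity+ActD culture and 10468 in the Activity culture, and 9751 in Block+ActD and 10484 in Block, and the part of this in the shared pattern was not tested.

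**Figure D5:**
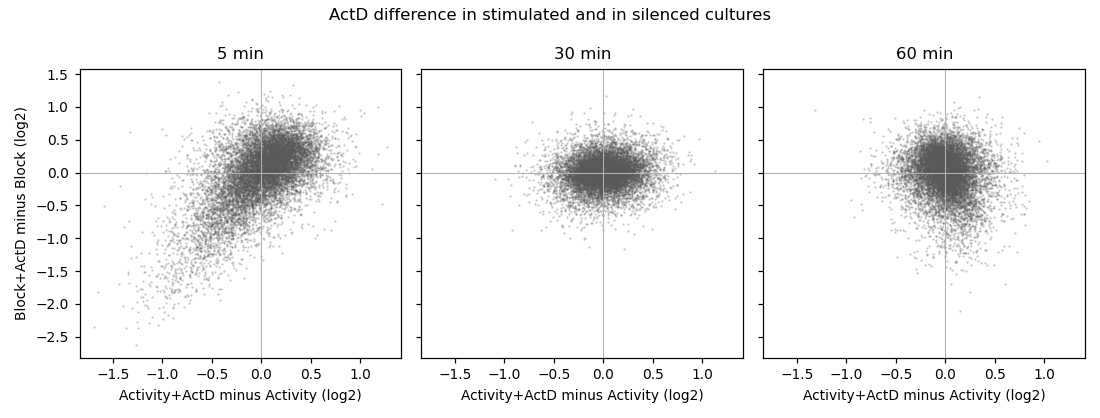
Log2 ActD difference of each tested probe in stimulated cultures (horizontal) and in silenced cultures (vertical) at each harvest; each point is 1 probe. Points follow a diagonal at 5 min (r = 0.601) and form a round cloud at 30 min (r = 0.0952).

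After 5 min, Car3 at 60 min was the 1 named gene detected in both cultures that was past 2-fold. Car3, a carbonic anhydrase, stood at 8.21, 7.19 and 5.50 in Activity+ActD cultures over the 3 harvests and at 8.52, 7.37 and 6.81 in Activity cultures, 2.49-fold lower at 60 min, while in silenced cultures the 60 min pair differed by 0.95 the other way. At 30 min Bcan, the brain proteoglycan brevican, was 1.86-fold lower, with 6.25, 5.18 and 5.87 in Activity+ActD cultures and 5.38, 6.08 and 6.37 in Activity cultures. The direction of its pair at 5 min was the opposite. Kcna4, a potassium channel, was 1.82-fold higher at 30 min, and Stc1, a secreted glycoprotein, 1.80-fold higher at 60 min. Over the 30 and 60 min harvests together, Scn2a, a sodium channel of axons, was higher by 0.39 ± 0.12 and Dclk1, a microtubule-binding kinase, by 0.31 ± 0.09, and Ttr, the thyroid hormone carrier, was lower (-0.37 ± 0.11), all with an adjusted p of 0.99 by limma. At 5 min the Scn2a pair differed by -0.42 and the Dclk1 pair by -0.16, opposite to the later pairs.

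Synaptic vesicle genes, which serve transmitter release, included transcripts with higher values in Activity+ActD cultures. Of 47 on the array 39 were tested, 24 with a mean above 0 and 15 below, and 4 higher and 0 lower had an unadjusted p under 0.05, beside 95 higher and 87 lower of all 8169 tested genes. At 5 min alone, 1 member was past 1.5-fold higher and 6 were past it lower, beside 135 higher and 438 lower of all 8169 tested genes. The 4 members higher at an unadjusted p under 0.05 by limma were Stx1a, Syn1, Vamp2 and Dnm1. Syn1, which tethers vesicles, was at 6.24, 6.73 and 6.33 in Activity+ActD cultures and 5.68, 6.20 and 6.18 in Activity cultures (0.41 ± 0.15). Vamp2, the vesicle SNARE, had 0.27 ± 0.11, and Dnm1, the dynamin of endocytosis, 0.19 ± 0.09. Vamp2 and Dnm1 differed by -0.06 and -0.02 at 60 min. The list's median difference was 0.09, -0.02 and 0.02, and Snap25, the abundant plasma membrane SNARE, differed by -0.30, 0.15 and 0.43, so the members lay on both sides of 0. Among postsynaptic genes Grin1, the obligatory NMDA receptor subunit, had 9.96, 10.37 and 9.73 in Activity+ActD cultures and 9.54, 10.02 and 9.70 in Activity cultures, and Gabrb2, a GABA-A receptor subunit, had 5.16, 5.13 and 5.78 in Activity+ActD cultures and 5.73, 5.76 and 6.01 in Activity cultures. The 33 tested postsynaptic genes split into 17 above and 16 below 0.

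Housekeeping genes and larger families of regulators had list medians between -0.14 and 0.10. Cytosolic ribosomal protein genes (57 tested) had medians of 0.05, -0.07 and -0.06, with 15 means above 0 and 42 below, and 0 past 1.5-fold at any harvest. Subunits of oxidative phosphorylation (57 tested) had medians of 0.08, -0.03 and -0.04, and proteasome subunits (40 tested) -0.02, -0.03 and -0.02. Chromatin modifiers and SMC proteins (52 tested) had -0.14, 0.03 and 0.10, with 7 members past 1.5-fold lower at 5 min, and zinc finger factors (126 tested) -0.09, 0.04 and 0.06, with 18 past it, where 438 of all 8169 tested genes were. Of the 18 tested Nrf2 targets, which guard against oxidants, 16 had a mean below 0, with Gclc, the catalytic subunit of glutathione synthesis, at 10.31, 10.80 and 10.73 in Activity+ActD cultures and 10.79, 11.06 and 10.77 in Activity cultures. Hmox1, the haem oxygenase, differed by -0.17, -0.28 and -0.13. Of p53 targets, 12 were tested, 4 with a mean above 0 and 8 below. Cdkn1a, the p53-induced inhibitor of cyclin-dependent kinases, differed by -0.12, 0.37 and 0.60.

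Interferon and antigen presentation genes (21 tested) had medians of -0.15, 0.05 and -0.04, and 8 means above 0 against 13 below. Markers of microglia were also lower at 5 min. Of 10 such markers 8, 4 and 2 were detected in Activity+ActD cultures and 10, 2 and 0 in Activity cultures at 5, 30 and 60 min, and their summed level was 1273, 172.5 and 118.5 in Activity+ActD cultures and 1748, 146.9 and 112.3 in Activity cultures. In silenced cultures at 5 min the order was the reverse, with 1888 in Block+ActD and 1211 in Block. Aif1, a defining microglial gene, differed by -0.49, 0.32 and -0.11 in stimulated cultures. Between harvests this list ran with the NF-kB list. The part of these cells in the differences of Mx2 and of either list was not tested.

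The difference did not grow detectably with time. The slope of the ActD difference over the hour was past the adjusted threshold for 0 of 11792 probes by limma (351 higher, 2.98%, and 200 lower, 1.70%, at an unadjusted p under 0.05, or 4.67% together), with a lowest adjusted p of 0.861. This test was less precise, with a median standard error of 0.38 per hour. Sh3bgrl1 had the lowest p of the named positive slopes (1.77 ± 0.67 per hour) and Dlx5, a homeobox factor of interneurons, that of the negative ones (-0.98 ± 0.37 per hour). Dlx5 stood at 7.13, 7.78 and 7.28 in Activity+ActD cultures and at 6.21, 7.44 and 7.26 in Activity cultures, so its pairs differed at 5 min and met at 60 min.

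Whether ActD acted differently on stimulated and on silenced neurons was tested as the difference of the 2 ActD effects, and 0 of 11792 probes passed by limma (369 higher, 3.13%, and 386 lower, 3.27%, at an unadjusted p under 0.05, or 6.40% together, with a lowest adjusted p of 0.705). Among named genes, Trip10, an adaptor of Cdc42 signalling, had the lowest p on the lower side, with a difference of -0.94 ± 0.20. It differed by -0.10, -0.32 and -0.56 in stimulated cultures and by 0.77, 0.59 and 0.47 in silenced ones. Mx2, next by p, had -0.79 ± 0.18. On the other side, Eif4ebp2, a repressor of cap-dependent translation in neurons, differed by 0.66 ± 0.19, with 0.38, 0.22 and 0.38 in stimulated and -0.57, -0.24 and -0.20 in silenced cultures. Gabbr2, a GABA-B receptor subunit, differed by 0.44 ± 0.13, with 0.12, 0.18 and 0.16 in stimulated and -0.60, 0.00 and -0.26 in silenced cultures. For the immediate early transcription factors the median of this difference was -0.08, with 7 members above 0 and 14 below. Over all tested genes it was -0.03, with 3651 above 0 and 4518 below. Other lists lay further from the value of all genes. Microglia markers had a median of -0.33 (0 above 0 and 10 below), interferon and antigen presentation genes -0.29 (5 and 16), NF-kB and C/EBP genes -0.20 (6 and 20), and pan-neuronal and glutamatergic markers 0.225 (12 and 6). Postsynaptic genes had 0.175 (26 and 7) and axon and neuron projection genes 0.161 (36 and 10). Mitochondrial ribosomal proteins had -0.12 (5 and 51), oxidative phosphorylation subunits -0.106 (10 and 47) and cytosolic ribosomal proteins -0.08 (11 and 46). In silenced cultures the ActD difference of the microglia markers had medians of 0.67, 0.03 and 0.01 at 5, 30 and 60 min. That of the interferon and antigen presentation genes had 0.66, -0.01 and 0.02, so both stood far from 0 at 5 min only. The pan-neuronal and glutamatergic markers had medians of -0.30, -0.05 and -0.21 in silenced cultures and of 0.03, 0.02 and 0.03 in stimulated ones. Among the immediate early factors Fos had -0.08 and Egr1 -0.08.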

How the data were processed

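The authors extracted total RNA with TRIzol, pooled coverslips for each sample and hybridized Illumina RatRef-12 arrays. The deposited intensity values were linear bead means for 22523 probes without scaling, and the authors' software gave a detection p-value per probe and array against the negative controls. A second deposited table of intensity values, scaled by the authors to equal totals, served as an alternative. The version of that software is not given in the sources used here. The neqc function (limma 3.58.1 under R 4.3.3, offset 16) estimated background through these p-values, made the array distributions equal and took log2. Testing was limited to the 11792 probes whose detection p was below 0.01 on 2 or more of 12 arrays. Of the 22523 probes, 13793 had 1 gene symbol in the platform annotation, 0 had several and 8730 had none; 13772 named probes matched the rat reference GRCr8.

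The ActD effect was fitted with lmFit and eBayes (variance trend) on all 12 arrays, with harvest as a factor beside the 4 treatments (6 residual degrees of freedom), at 30 and 60 min alone (3), as a slope per hour (3), and as the difference between Activity and Block (6), with Benjamini-Hochberg adjustment at 0.05 over all tested probes. For a gene, the probe with the highest mean over the 12 arrays was used. "At least" folds set the brighter group's mean against the dimmer group's mean of, per array, the higher of the probe's level and the lowest detected level. Named were up to 12 genes with the lowest p for each test and direction with the same sign at each harvest, up to 5 per list with the lowest p, members of the short-lived lists, and up to 8 genes per harvest and direction with the largest difference, of which the text gives a part. The members, the 30 gene lists, the tests and the alternatives were chosen with earlier results of these data known. All arrays carry replicate number 3, and separate preparations per array are not stated, so the spread may be technical. With 3 pairs an exact two-sided permutation test could not go below p = 0.25 and was not used. The values of a gene among the short-lived regulators are not reported here.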

Additional observations from a re-analysis of the deposited data

How the results depend on the processing

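The count of 0 probes in each of the 4 tests was also 0 to 0 when each array was left out in turn, and it was 0 under the other settings tried (the authors' scaling, median scaling, no background correction, an offset of 50, no filter or a stricter one, robust variances, array weights, and, where fitted, no harvest block and each harvest left out) except with the Activity and Activity+ActD arrays alone. There the 30 and 60 min test called 10 probes higher and 10 lower, and the slope 144 higher and 10 lower, each on 1 residual degree of freedom. Of the values of named genes under alternatives, 1979 kept their direction and side of the threshold, 5 passed the threshold, all with those arrays alone (Tmem67, Hmgb1, Bcan, Ifi27l2b and the slope of Sh3bgrl1), and 6 turned. List medians moved by less than their spread between harvests in 54 cases and by more in 6. The test against Block could not be fitted on those arrays. Of the named genes, slopes per hour turned when the Activity array of 5 min was left out for Zfp354c (range over arrays left out -0.12 to 2.42), Il33 (-0.26 to 2.17), Pcdh12 (-2.40 to 0.19) and Dpp6 (-1.72 to 0.20), and when the Activity array of 60 min was left out for Car3 (-2.84 to 1.05) and Stat2 (-1.39 to 0.24).

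Counts past 1.5-fold depended on the threshold and the scaling. At 2-fold, 7 probes were higher and 85 lower at 5 min, 1 and 1 at 30 min, and 1 and 1 at 60 min. With the authors' scaling, 38 were higher and 351 lower at 5 min, 11 and 9 at 30 min, and 0 and 4 at 60 min. With median scaling, 112 were higher and 1136 lower at 5 min. The cause was not tested. By replicate number no paired analysis was possible because all arrays carry the same one. Arrays were paired by harvest instead, which was a factor in the fits. A slide block was not run, since the headers name no slide. Signal over background limits what dim probes can show.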
